A study of Mus musculus with 23 samples.

Results

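De novo lipogenesis is the pathway by which hepatocytes turn surplus carbohydrate into fatty acids. It was followed here through 10 genes, *Fasn*, *Acaca*, *Acacb*, *Acly*, *Scd1*, *Elovl6*, *Srebf1*, *Me1*, *Mlxipl* and *Thrsp*, which were matched by symbol in a table of 27179 genes, and all 10 had reads in every mouse. The RNA came from livers of 15 female mice, from parts without visible tumors. The 6 Ctrl mice carried *Alb*-Cre, had both *Trp53* alleles and 1 *Icmt* allele floxed, and were wild type for Braf. The 6 ABpIF/+ mice had the same alleles plus BrafCA/+, which yields BrafV600E after Cre recombination. The 3 ABpIF/F mice had BrafCA/+ and both *Icmt* alleles floxed. The loss of *Trp53* is thus shared by all groups, controls included, and *Alb*-Cre acts in cells of the hepatocyte and biliary lineage while other liver cells keep their alleles. BrafCA/+ is taken from the design text, whereas the sample labels write BRAF +/+ for both mutant groups and BRAF wt for Ctrl. The labels give no ages, and the study's text describes the 3 ABpIF/F mice as tumor-bearing and of different ages.

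In this pathway citrate leaves the mitochondrion and ATP citrate lyase (*Acly*) cleaves it to acetyl-CoA. Acetyl-CoA carboxylase 1 (*Acaca*) makes the malonyl-CoA that fatty acid synthase (*Fasn*) extends to palmitate with NADPH, part of which comes from malic enzyme (*Me1*). *Elovl6* lengthens palmitate and stearoyl-CoA desaturase (*Scd1*) introduces a double bond. Transcription of these enzymes in liver is driven by SREBP-1c (*Srebf1*), which responds to insulin, and by ChREBP (*Mlxipl*), which responds to glucose. *Acacb* encodes the carboxylase isozyme at the mitochondrial surface, whose malonyl-CoA restrains fatty acid oxidation, and *Thrsp* encodes Spot 14, a thyroid hormone responsive protein of lipogenic tissues.

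The promoters of *Fasn*, the central enzyme, and of *Mlxipl*, the only member with a match to both regulator motifs, are shown for the regulator motifs that they hold or lack. They are the 250 bases before annotated RefSeq transcription starts (build GRCm38.p6), read 5′ to 3′ on the gene's strand, with matches on either strand in capitals.
Fasn, chr11:120824548-120824797, minus strand: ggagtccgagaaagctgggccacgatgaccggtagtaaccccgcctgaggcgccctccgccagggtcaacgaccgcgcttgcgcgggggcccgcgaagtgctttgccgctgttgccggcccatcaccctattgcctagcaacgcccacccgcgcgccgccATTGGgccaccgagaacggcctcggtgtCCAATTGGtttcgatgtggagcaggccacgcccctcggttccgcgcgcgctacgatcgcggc
Mlxipl, start inside the gene, chr5:135106641-135106890, plus strand: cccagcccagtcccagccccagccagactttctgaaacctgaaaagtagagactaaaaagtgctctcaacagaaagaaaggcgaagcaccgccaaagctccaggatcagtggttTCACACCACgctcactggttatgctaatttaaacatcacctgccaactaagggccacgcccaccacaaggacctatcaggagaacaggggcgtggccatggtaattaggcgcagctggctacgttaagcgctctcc
Mlxipl, upstream start, chr5:135089640-135089889, plus strand: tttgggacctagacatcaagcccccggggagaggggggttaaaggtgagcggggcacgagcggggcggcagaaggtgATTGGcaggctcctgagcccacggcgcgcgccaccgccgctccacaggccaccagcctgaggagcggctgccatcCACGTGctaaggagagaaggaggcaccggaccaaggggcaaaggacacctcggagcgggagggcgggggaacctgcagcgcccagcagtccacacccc
The capitals mark the sterol regulatory element TCACNCCAC, the E box CACGTG and the CCAAT box, which overlap nowhere except for the CCAAT boxes on opposite strands of the *Fasn* window. In windows of 300 bases, which also take 50 bases after the start, the sterol regulatory element was present in 1.24%, the E box in 7.15% and the CCAAT box in 37.4% of 32851 mouse promoters. Of the 9 members with a window (13 windows in all), 1 held the sterol regulatory element, 1 the E box and 7 the CCAAT box (*Acacb*, *Mlxipl*, *Thrsp*, *Me1*, *Srebf1*, *Acly* and *Fasn*). Counted by windows, as the percentages are, these were 1, 1 and 8 of the 13. A pair of E boxes 5 bases apart occurred in 0 of the windows. Such matches describe letters only.

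Depth was similar across mice, between 24742910 and 32262649 counts on genes. Levels are given as CPM, counts set to equal library sizes by TMM scaling, and differences as log2 fold changes with their standard error (SE) from edgeR's quasi-likelihood test. The adjusted p was taken by Benjamini-Hochberg over all 27179 genes, and calls required this value to be under 0.01 with a change of at least 2-fold. *Icmt*, the targeted gene, was between 27.8 and 34.7 CPM in Ctrl, between 27.8 and 37.4 in ABpIF/+ and between 15.2 and 16.6 in ABpIF/F livers, which matched the genotype labels. 1 Ctrl mouse, malpa387, stood apart in its clock genes. A score over 14 clock genes (mean z value of log2 CPM, positive when *Bmal1*, *Clock*, *Npas2* and *Cry1* are high) was 1.24 in malpa387, between -0.55 and -0.33 in the other Ctrl, between -0.66 and -0.15 in ABpIF/+ and between 0.59 and 1.65 in ABpIF/F mice. The strain label was uneven too, being the same for all 9 mice with BrafCA/+ and for 1 Ctrl mouse, BG3, and another for the remaining 5 Ctrl mice.

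Transcripts of the pathway were lower in livers with BrafV600E. In ABpIF/+ vs Ctrl, 8 of the 10 genes were called lower and 0 higher, the exceptions being *Srebf1* and *Acaca*. In ABpIF/F vs Ctrl, 7 were called lower and 0 higher, the exceptions being *Srebf1*, *Mlxipl* and *Acaca*. By comparison, 7.13% of the 20380 genes with a read were called lower in ABpIF/+ and 3.17% in ABpIF/F livers, and 7.02% and 6.39% of the 7830 genes that averaged 10 CPM or more, a level that all 10 members reached. For the called-higher direction the background was 6.26% and 6.06%. The median log2 fold change of the 10 genes was -1.99 in ABpIF/+ and -2.04 in ABpIF/F, beside 0.02 and -0.10 over those genes. Every mouse was below every Ctrl mouse for 6 members in ABpIF/+ and 7 in ABpIF/F, against 16.3% and 22.1% of those 7830 genes. Both comparisons share the Ctrl mice.

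**Figure D1:**
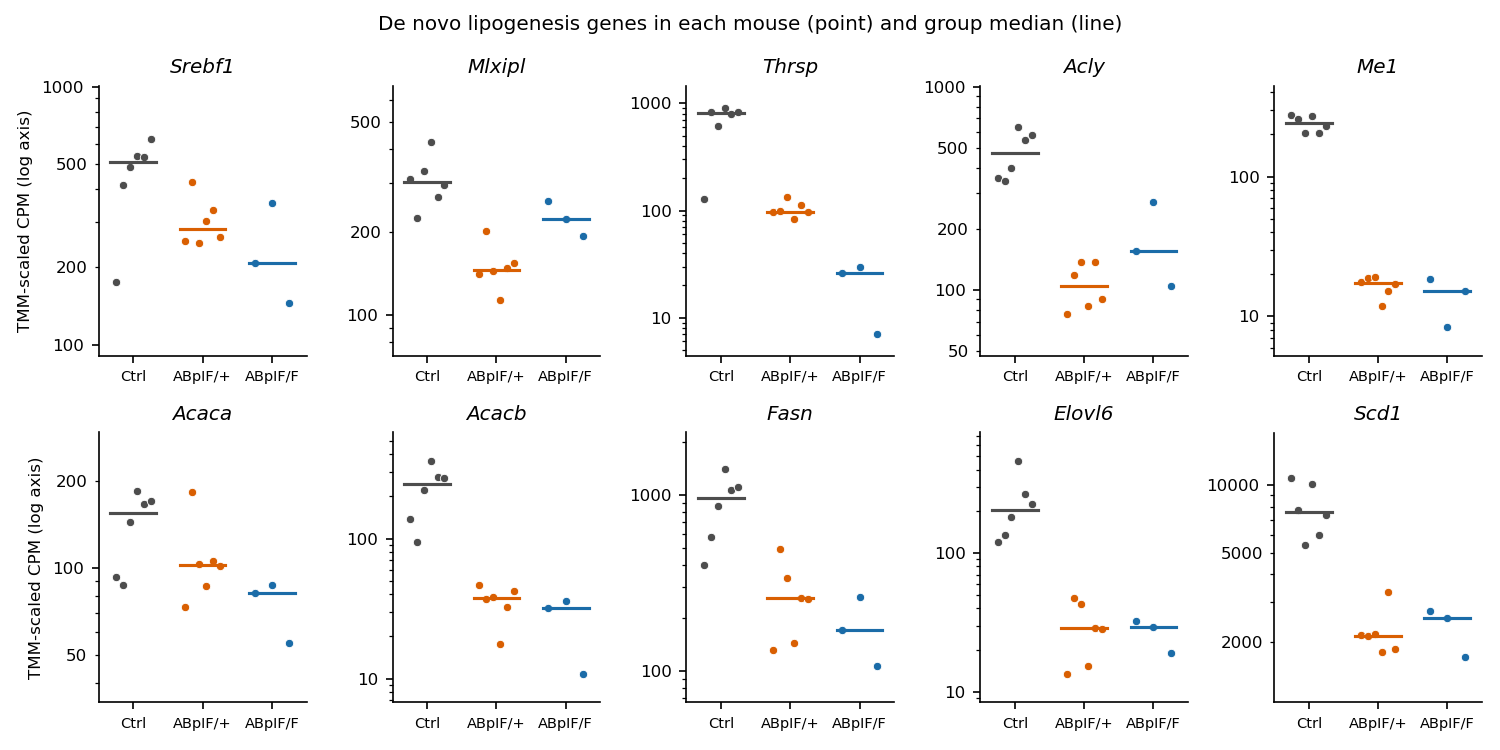
CPM of the 10 de novo lipogenesis genes (log axes) in each of 6 Ctrl, 6 ABpIF/+ and 3 ABpIF/F mice; points are mice and lines are group medians. Me1 is below 20 CPM in all 9 mice with BrafV600E and above 200 in all Ctrl mice, whereas Acaca and Srebf1 overlap between groups.

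2 conditions bear on these counts. Against BG3 alone, the Ctrl mouse with the strain label of the mutants, 3 members were called lower in each comparison (*Thrsp*, *Me1* and *Scd1*), a single mouse taken to vary like the others. Among the others, the log2 fold changes of *Elovl6* stayed over 2 in size (-2.21, adjusted p = 0.0504, and -2.37, adjusted p = 0.0689) and those of *Acly* were -1.68 (adjusted p = 0.0195) and -0.98 (adjusted p = 0.263). Those of *Acacb* (-1.41 and -1.88), *Fasn* (-1.09 and -1.71) and *Mlxipl* (-0.59 and -0.038) were smaller than against all Ctrl mice, and *Acaca* in ABpIF/+ was 0.32. With 1 such Ctrl mouse, the part of the strain label was not tested further. With the clock score as a covariate, 8 members were still called in ABpIF/+ vs Ctrl, but only 3 in ABpIF/F vs Ctrl (again *Thrsp*, *Me1* and *Scd1*). The 4 lost calls retained negative log2 fold changes, of -2.66 ± 0.64 (SE, adjusted p = 0.0249) for *Acacb*, -2.35 ± 0.64 (SE, adjusted p = 0.0430) for *Elovl6*, -1.32 ± 0.44 (SE, adjusted p = 0.0839) for *Acly* and -1.47 ± 0.66 (SE, adjusted p = 0.251) for *Fasn*. Each SE was larger than without the covariate, whose values were high in all 3 ABpIF/F mice. Without malpa387 the counts were 8 and 8.

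Positions are those of GENCODE M21 on GRCm38, with Entrez identifiers. Among the regulators, *Srebf1* (Entrez 20787, chromosome 11, 60199089 to 60222581) was between 174 and 628 CPM (median 511) in Ctrl and between 247 and 428 CPM (median 281) in ABpIF/+ mice, and 208, 355 and 145 CPM in the 3 ABpIF/F mice (BG183, BG90 and BG38). The groups overlap, with malpa387 at 174 CPM and the other Ctrl mice at 416 or more. Its log2 fold change was -0.61 ± 0.26 (SE, adjusted p = 0.110) in ABpIF/+ vs Ctrl and -0.97 ± 0.34 (SE, adjusted p = 0.0579) in ABpIF/F vs Ctrl. Without malpa387 these became -0.78 (adjusted p = 0.00421) and -1.14 (adjusted p = 0.00187), so that the second was called. The SREBP-1a and SREBP-1c transcripts cannot be told apart in counts per gene.

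*Mlxipl* (Entrez 58805, chromosome 5, 135089890 to 135138382) was between 226 and 422 CPM (median 303) in Ctrl, between 114 and 202 CPM (median 146) in ABpIF/+ and 259, 224 and 193 CPM in ABpIF/F mice. All ABpIF/+ mice lay below all Ctrl mice, while the ABpIF/F mice lay between the group medians of both. The change was -1.04 ± 0.15 (SE, adjusted p = 1.67e-05) in ABpIF/+ vs Ctrl, just past the fold threshold, and it missed that threshold without the highest Ctrl mouse, malpa458 (-0.93), or without the lowest ABpIF/+ mouse, BG88 (-0.97). In ABpIF/F vs Ctrl it was -0.46 ± 0.19 (SE, adjusted p = 0.112).

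*Thrsp* (Entrez 21835, chromosome 7, 97412938 to 97417730) was between 129 and 908 CPM (median 812) in Ctrl, between 84.0 and 134 CPM (median 97.6) in ABpIF/+ and 26.1, 29.8 and 7.03 CPM in ABpIF/F mice. The value of malpa387, 129 CPM, was within the range of the ABpIF/+ mice, and the next lowest Ctrl mouse had 612 CPM. The log2 fold change was -2.72 ± 0.43 (SE, adjusted p = 0.000265) in ABpIF/+ vs Ctrl and -5.03 ± 0.65 (SE, adjusted p = 9.57e-05) in ABpIF/F vs Ctrl, a 32.7-fold difference and the largest among the members in that fit. With the clock score as a covariate it was -3.50 (adjusted p = 0.00783), and the change of *Me1* (-4.03) was then larger.

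Both suppliers of precursors were lower. *Acly* (Entrez 104112, chromosome 11, 100476353 to 100528000) was between 343 and 632 CPM (median 472) in Ctrl, between 76.0 and 137 CPM (median 104) in ABpIF/+ and 156, 271 and 104 CPM in ABpIF/F mice. No mouse with BrafV600E reached the lowest Ctrl mouse. The change was -2.15 ± 0.23 (SE, adjusted p = 1.05e-06) in ABpIF/+ and -1.42 ± 0.30 (SE, adjusted p = 0.00184) in ABpIF/F vs Ctrl. The latter was no longer called without BG183 (-1.34, adjusted p = 0.0138) or without BG38 (-1.15, adjusted p = 0.0163).

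*Me1* (Entrez 17436, chromosome 9, 86581371 to 86695953) was between 204 and 277 CPM (median 243) in Ctrl, between 11.8 and 19.3 CPM (median 17.5) in ABpIF/+ and 18.5, 8.36 and 15.2 CPM in ABpIF/F mice. The groups were separated by more than their whole ranges, and malpa387 and BG3, low for other members, were among the higher Ctrl mice. The change was -3.85 ± 0.18 (SE, adjusted p = 5.11e-13) in ABpIF/+ vs Ctrl, a 14.4-fold difference, and -4.10 ± 0.24 (SE, adjusted p = 1.31e-10) in ABpIF/F vs Ctrl, a 17.1-fold difference.

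In the step to malonyl-CoA the 2 carboxylases differed. *Acaca* (Entrez 107476, chromosome 11, 84129672 to 84401651), the cytosolic lipogenic isozyme, was between 87.2 and 184 CPM (median 156) in Ctrl, between 73.6 and 184 CPM (median 103) in ABpIF/+ and 82.0, 87.4 and 54.9 CPM in ABpIF/F mice. The groups overlap, with malpa387 and BG3 the lowest Ctrl mice at 93.5 and 87.2 CPM. Its change was -0.37 ± 0.23 (SE, adjusted p = 0.300) in ABpIF/+ and -0.92 ± 0.29 (SE, adjusted p = 0.0360) in ABpIF/F vs Ctrl, neither called. *Acacb* (Entrez 100705, chromosome 5, 114146535 to 114250761) was between 95 and 357 CPM (median 247) in Ctrl, between 17.6 and 46.6 CPM (median 37.9) in ABpIF/+ and 31.9, 36.1 and 10.8 CPM in ABpIF/F mice. Every mutant mouse was below the lowest Ctrl mouse, BG3 at 95 CPM. The change was -2.67 ± 0.37 (SE, adjusted p = 9.50e-05) in ABpIF/+ and -3.11 ± 0.51 (SE, adjusted p = 0.000644) in ABpIF/F vs Ctrl.

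The ratio of *Acacb* to *Acaca* within each mouse does not depend on library scaling. It was chosen after these values were seen, and was computed as log2 of CPM per kb of exon. The mean was 1.44 ± 0.27 (SD, n = 6) in Ctrl, -0.79 ± 0.64 (SD, n = 6) in ABpIF/+ and -0.83 ± 0.59 (SD, n = 3) in ABpIF/F mice. The ratio was at least 0.95 in every Ctrl mouse and at most 0.17 in every other mouse. The difference from Ctrl was -2.22 in ABpIF/+ (two-sided exact permutation test, adjusted p = 0.00649 over 6 ratio tests) and -2.27 in ABpIF/F (exact permutation test, adjusted p = 0.0357). The unadjusted p-values, 0.00216 and 0.0238 (exact permutation tests), are the smallest these group sizes allow, and they come from the mice that led to the ratio being examined. The transcripts of both genes share 0 stretches of 50 bases.

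**Figure D2:**
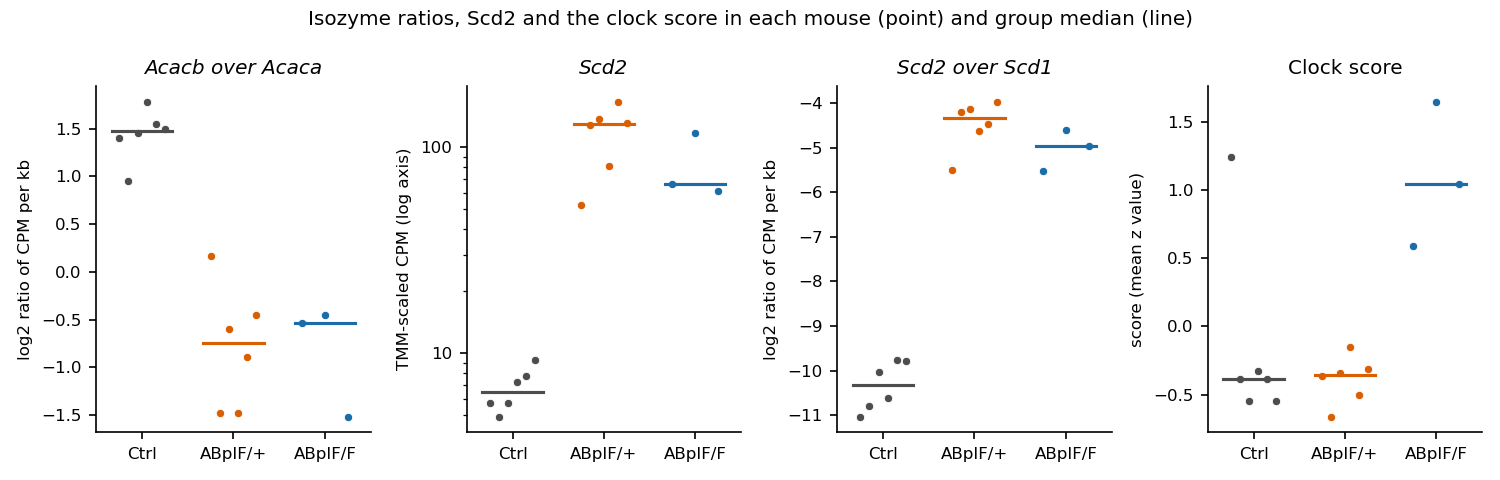
Log2 ratios of Acacb over Acaca and of Scd2 over Scd1 (CPM per kb), Scd2 in CPM (log axis) and the clock score in each mouse (points), with group medians (lines). Both ratios separate all Ctrl mice from all mice with BrafV600E, and the clock score of 1 Ctrl mouse lies among those of the ABpIF/F mice.

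*Fasn* (Entrez 14104, chromosome 11, 120805846 to 120824547) was between 401 and 1409 CPM (median 962) in Ctrl, between 132 and 495 CPM (median 259) in ABpIF/+ and 170, 264 and 106 CPM in ABpIF/F mice. BG40, the highest ABpIF/+ mouse at 495 CPM, exceeded malpa387 at 401, and all other mice with BrafV600E were below all Ctrl mice. The change was -1.74 ± 0.38 (SE, adjusted p = 0.00292) in ABpIF/+ vs Ctrl, a 3.33-fold difference. In ABpIF/F vs Ctrl it was -2.32 ± 0.51 (SE, adjusted p = 0.00478), a 5.01-fold difference that was no longer called without BG183 (-2.29, adjusted p = 0.0248) or without BG38 (-2.05, adjusted p = 0.0428).

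*Elovl6* (Entrez 170439, chromosome 3, 129532355 to 129638495) was between 120.0 and 463 CPM (median 204) in Ctrl, between 13.4 and 47.3 CPM (median 28.6) in ABpIF/+ and 32.3, 29.2 and 19.0 CPM in ABpIF/F mice. The highest mutant mouse stayed well under the lowest Ctrl mouse. The change was -2.98 ± 0.41 (SE, adjusted p = 8.40e-05) in ABpIF/+ and -3.11 ± 0.55 (SE, adjusted p = 0.00121) in ABpIF/F vs Ctrl, and without BG38 the latter was -2.91 and not called (adjusted p = 0.0133).

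*Scd1* (Entrez 20249, chromosome 19, 44394455 to 44407879) was by far the most abundant member, between 5388 and 10751 CPM (median 7556) in Ctrl, between 1789 and 3321 CPM (median 2122) in ABpIF/+ and 2737, 2543 and 1711 CPM in ABpIF/F mice. Here malpa387 was the highest Ctrl mouse. The change was -1.83 ± 0.20 (SE, adjusted p = 3.75e-07) in ABpIF/+ and -1.76 ± 0.26 (SE, adjusted p = 4.11e-05) in ABpIF/F vs Ctrl.

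**Figure D3:**
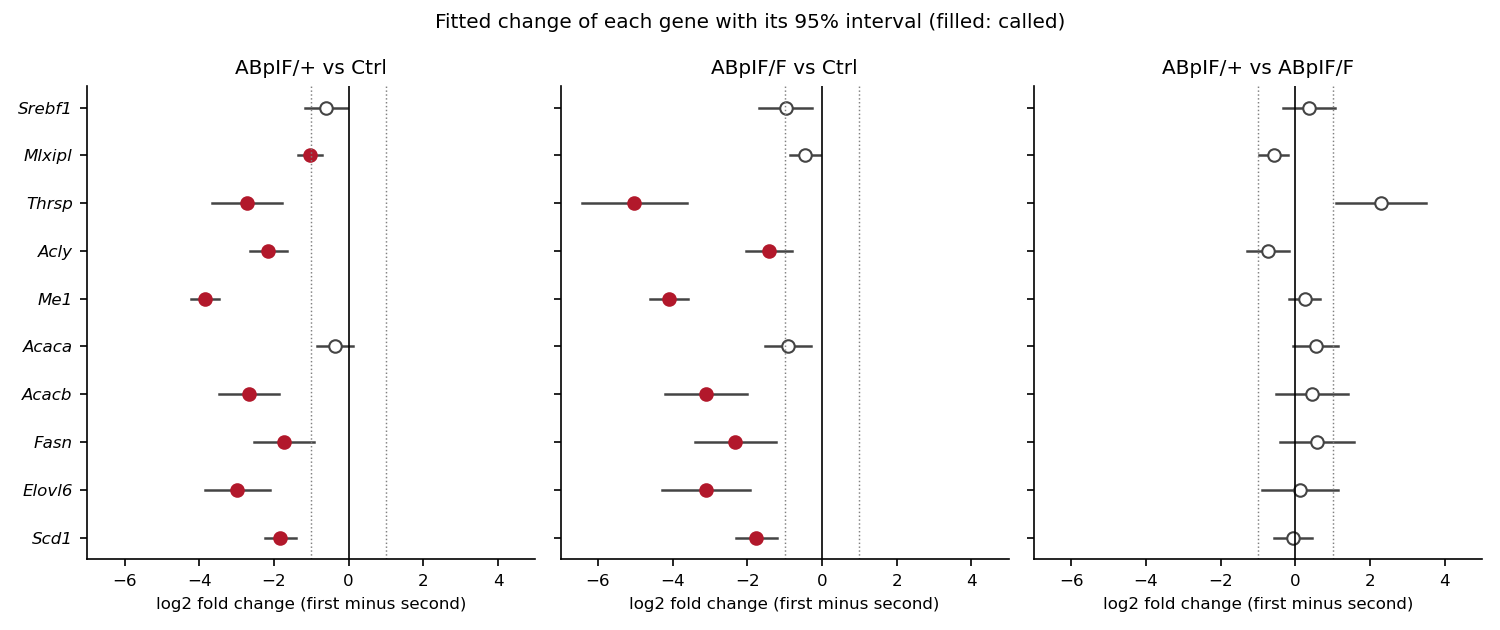
Fitted log2 fold change of each gene with its 95% interval in the 3 comparisons; filled points were called and dotted lines mark a 2-fold change. In both comparisons with Ctrl all 10 estimates are below 0, and in ABpIF/+ vs ABpIF/F 0 genes were called.

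ABpIF/+ vs ABpIF/F compares mice that differ by design in their *Icmt* alleles. Their clock scores also differed, at most -0.15 in ABpIF/+ and at least 0.59 in ABpIF/F mice. The study reports weight loss in ABpIF/+ but not in ABpIF/F mice. Such differences cannot be told apart here from the loss of *Icmt*. In this comparison 0 of 10 members were called in either direction, beside 2.35% of genes with a read called higher in ABpIF/+ and 7.32% called lower. At an unadjusted p under 0.05 (edgeR) were 3 of the 10 members, *Thrsp*, *Mlxipl* and *Acly*. A larger share of the 7830 genes averaging 10 CPM or more (3659) had such a p. *Thrsp* was higher in each ABpIF/+ mouse than in each ABpIF/F mouse, with a log2 fold change of 2.31 ± 0.56 (SE, adjusted p = 0.0105), just short of the threshold. It was called by DESeq2 (adjusted p = 5.72e-05), after filtering low genes, with edgeR's newer form, without robust estimation, with only the groups compared, against BG3 as the only Ctrl and without malpa387, but fell to 0.72 (adjusted p = 0.815) with the clock score as a covariate. The estimates for *Mlxipl*, -0.58 ± 0.18 (SE, adjusted p = 0.0279), and for *Acly*, -0.73 ± 0.27 (SE, adjusted p = 0.0724), interval from -1.29 to -0.16, were below 0. The interval of *Fasn* ran from -0.40 to 1.58, that of *Elovl6* from -0.89 to 1.15, that of *Acacb* from -0.51 to 1.40, that of *Scd1* from -0.56 to 0.43 and that of *Me1* from -0.17 to 0.66, so a 2-fold difference is outside the interval for *Scd1* and *Me1* but not for the other 3.

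Within the groups, the mouse with the lowest value was the same for most members in ABpIF/F but not in the other groups. Among ABpIF/F mice, BG38 was the lowest for 9 of the 10 genes, *Me1* being the exception. Among Ctrl mice, malpa458 was the highest for 7 and malpa387 and BG3 were the lowest for 4 each. Among ABpIF/+ mice, BG40 was the highest for 5 and BG88 the lowest for 5. The summed CPM of the 10 genes was between 8835 and 15329 in Ctrl, between 2649 and 4493 in ABpIF/+ and between 2367 and 3849 in ABpIF/F mice, of which *Scd1* made up 67.7% ± 9.39 (SD, n = 6), 66.2% ± 6.24 (SD, n = 6) and 70.6% ± 4.00 (SD, n = 3).

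To compare genes with each other, CPM were divided by the length of all annotated exons (GENCODE M21), which understates genes with many alternative exons such as *Acaca*. *Scd1* was at 1614 ± 443 CPM per kb in Ctrl (SD, n = 6) and *Thrsp* at 313 ± 132. *Acly* (90.2 ± 23.8), *Fasn* (82.5 ± 33.8), *Srebf1* (82.2 ± 27.9), *Me1* (62.5 ± 8.52), *Mlxipl* (55.8 ± 12.1), *Elovl6* (36.1 ± 19.5) and *Acacb* (23.5 ± 10.0) followed, and among these 7 the mean ± SD of each overlapped that of its neighbours in the order. *Acaca* came last at 8.27 ± 2.43. In ABpIF/+ livers the mean of *Acacb*, 3.71 CPM per kb, was below that of *Acaca*, 6.41, and *Me1* had 4.32.

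The non-members whose log2 CPM correlated most with *Fasn* over the 15 mice were *Glyctk*, *Optn*, *Pcsk6*, *Cox15* and *Atrn*, with Pearson's r from 0.941 to 0.959. Of the members, *Elovl6* (r = 0.955) and *Acacb* (r = 0.916) were the most similar to *Fasn* and *Mlxipl* (r = 0.732) the least. For *Srebf1* *Narf*, *Eif4g1*, *Pde8a* and *Sec31a* were among the most similar non-members (r from 0.892 to 0.911), and its r was 0.833 with *Acaca* and 0.822 with *Fasn* but 0.411 with *Mlxipl*. The search covered 9541 genes averaging 5 CPM or more, and the values contain the group differences.

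Beside the members stand 68 other genes in 7 lists of the surrounding pathway. Of these, 9 were called lower and 3 higher in ABpIF/+ vs Ctrl, 10 lower and 4 higher in ABpIF/F vs Ctrl, and 1 lower and 5 higher in ABpIF/+ vs ABpIF/F. Of the genes with a read, 7.13% were called lower and 6.26% higher in ABpIF/+ vs Ctrl. These shares were 3.17% and 6.06% in ABpIF/F vs Ctrl, and 7.32% and 2.35% in ABpIF/+ vs ABpIF/F. They also stand beside the counts of the single lists below. The list of citrate export, acetyl-CoA and NADPH supply resembled the members most, with 4 of 7 called lower in both comparisons with Ctrl and a median of -1.05 and -1.27. *Acss2*, which makes cytosolic acetyl-CoA from acetate, was between 311 and 603 CPM (median 406) in Ctrl, between 64.1 and 96.4 CPM (median 68.9) in ABpIF/+ and between 35.6 and 110.4 CPM (median 99.1) in ABpIF/F mice. Its change was -2.60 ± 0.24 (SE, adjusted p = 9.61e-08) and -2.44 ± 0.31 (SE, adjusted p = 1.42e-05). *Aacs*, which activates acetoacetate for lipid synthesis, changed by -1.84 ± 0.36 (SE, adjusted p = 0.00150) and -2.12 ± 0.47 (SE, adjusted p = 0.00622). The cytosolic dehydrogenases *Idh1* (-1.20 and -1.27) and *Mdh1* (-1.05 and -1.33) were called in both. *G6pdx*, the entry enzyme of the pentose phosphate pathway and another source of NADPH, went the other way in ABpIF/F mice. It was between 4.84 and 15.3 CPM (median 7.05) in Ctrl, between 7.81 and 13.7 CPM (median 12.0) in ABpIF/+ and between 22.5 and 57.0 CPM (median 32) in ABpIF/F mice, with a change of 2.19 ± 0.31 (SE, adjusted p = 9.72e-05) in ABpIF/F vs Ctrl and -1.69 ± 0.31 (SE, adjusted p = 0.00106) in ABpIF/+ vs ABpIF/F.

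Of 13 other elongases and desaturases, 4 were called lower and 2 higher in ABpIF/+ vs Ctrl, and 3 lower and 2 higher in ABpIF/F vs Ctrl. *Scd2*, the desaturase isoform typical of brain and of developing tissues, rose while *Scd1* fell. It was between 4.92 and 9.25 CPM (median 6.49) in Ctrl, between 52.3 and 166 CPM (median 130.4) in ABpIF/+ and 66.4, 117 and 61.7 CPM in ABpIF/F mice, without overlap between Ctrl and the others. The change was 4.10 ± 0.29 (SE, adjusted p = 3.52e-08) and 3.59 ± 0.31 (SE, adjusted p = 8.52e-07). The log2 ratio of *Scd2* to *Scd1* per kb, also chosen after the values were seen, was -10.34 ± 0.55 (SD, n = 6) in Ctrl, -4.48 ± 0.56 (SD, n = 6) in ABpIF/+ and -5.03 ± 0.47 (SD, n = 3) in ABpIF/F mice. It rose by 5.85 in ABpIF/+ (exact permutation test, adjusted p = 0.00649) and by 5.31 in ABpIF/F (exact permutation test, adjusted p = 0.0357). *Scd1* transcripts still outnumbered those of *Scd2* in every mouse. Of the 50-base stretches of *Scd2*, 2.65% also occur in *Scd1*, and of those of *Scd1*, 2.97% also occur in *Scd2*. Because *Scd1* was the more abundant, these shares do not tell how many reads counted for *Scd2* could stem from *Scd1*. That number was not tested.

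The polyunsaturated branch was lower in part. *Fads2*, the first desaturase of this branch, changed by -1.52 ± 0.20 (SE, adjusted p = 5.54e-06) and -1.96 ± 0.27 (SE, adjusted p = 1.79e-05), *Elovl5* by -1.64 ± 0.25 (SE, adjusted p = 7.94e-05) and -1.11 ± 0.32 (SE, adjusted p = 0.0213), and *Fads1* by -0.39 ± 0.15 (SE, adjusted p = 0.0601) and -1.01 ± 0.19 (SE, adjusted p = 0.000567). *Hsd17b12*, the ketoacyl reductase of the elongation complex, was called lower in ABpIF/+ vs Ctrl (-1.03), and its change between the mutant groups, -0.72 ± 0.16 (SE, adjusted p = 0.00300), stayed under 2-fold. The other called genes of this list, *Elovl3* (lower in both) and *Elovl7* (higher in both), had a mean under 5 CPM in each group and are named after their values were seen.

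Few genes upstream of the enzymes were called. Of 5 genes that process SREBP, edgeR and DESeq2 called 0 in any comparison, with 1 at an unadjusted p under 0.05 in each. In ABpIF/F vs Ctrl, 1 also had an adjusted p under 0.05 (edgeR). *Insig1*, which retains SREBP in the endoplasmic reticulum and is itself an SREBP target, changed by -0.40 ± 0.33 (SE, adjusted p = 0.496) and -0.46 ± 0.41 (SE, adjusted p = 0.596). *Insig2* changed by 0.14 ± 0.32 (SE, adjusted p = 1.00) and 0.51 ± 0.38 (SE, adjusted p = 0.485). Of 12 genes of sugar input and ChREBP targets, edgeR called 0 in either comparison with Ctrl and DESeq2 called 1 in each. By edgeR, 7 and 5 had an unadjusted p under 0.05 and 4 and 4 an adjusted p under 0.05. Of the 12316 genes averaging 1 CPM or more, 7176 and 5629 had such an unadjusted p and 5830 and 3913 such an adjusted p. *Pklr*, the liver pyruvate kinase and a ChREBP target, changed by -0.70 ± 0.27 (SE, adjusted p = 0.0700) and -1.31 ± 0.35 (SE, adjusted p = 0.0146). The glucose transporter *Slc2a2* was called higher in ABpIF/+ than in ABpIF/F mice (1.30).

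Of 13 receptors and insulin signaling genes, edgeR and DESeq2 called 0 in ABpIF/+ vs Ctrl. An adjusted p under 0.05 (edgeR) was found for 6 of the 13, which changed by less than 2-fold. Of the 12316 genes averaging 1 CPM or more, 5830 had such a p. Among the 6 were the insulin receptor substrate *Irs1*, -0.75 ± 0.15 (SE, adjusted p = 0.000567), and the liver X receptor *Nr1h2*, 0.66 ± 0.11 (SE, adjusted p = 5.83e-05), both named after their values were seen. In ABpIF/F mice 1, *Pparg*, was lower (-1.37 vs Ctrl, and 1.55 higher in ABpIF/+ than in ABpIF/F). In ABpIF/F vs Ctrl, 3 of the 13 had an adjusted p under 0.05 (edgeR), beside 3913 of those 12316 genes. Of 6 partners and modifiers of acetyl-CoA carboxylase, the AMP-activated kinase subunit *Prkab1* rose in both comparisons (1.15 and 1.01) and *Prkaa2*, a catalytic subunit, fell in ABpIF/F mice (-1.08). *Mid1ip1*, a paralog of *Thrsp* that activates the carboxylase, changed by 0.03 ± 0.25 (SE, adjusted p = 1.00) and -1.05 ± 0.32 (SE, adjusted p = 0.0347). Of 12 genes of triglyceride synthesis, 1 was called lower in each comparison with Ctrl, beside 7.13% and 3.17% of genes with a read. In ABpIF/+ this was *Mogat1*, named after its values were seen, which had at most 2 counts in each ABpIF/+ mouse and was at least 3.19-fold lower when set at 3 counts per library. In ABpIF/F it was the phosphatidate phosphatase *Lpin2* (-1.63). *Lpin2* and *Lpin1* were called higher in ABpIF/+ than ABpIF/F mice (1.89 and 3.2). *Gpam*, the first acyltransferase of glycerolipid synthesis, changed by -0.75 ± 0.29 (SE, adjusted p = 0.0764) and -0.58 ± 0.36 (SE, adjusted p = 0.366), and *Dgat2*, the last, by 0.01 ± 0.19 (SE, adjusted p = 1.00) and -0.83 ± 0.24 (SE, adjusted p = 0.0175).

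**Figure D4:**
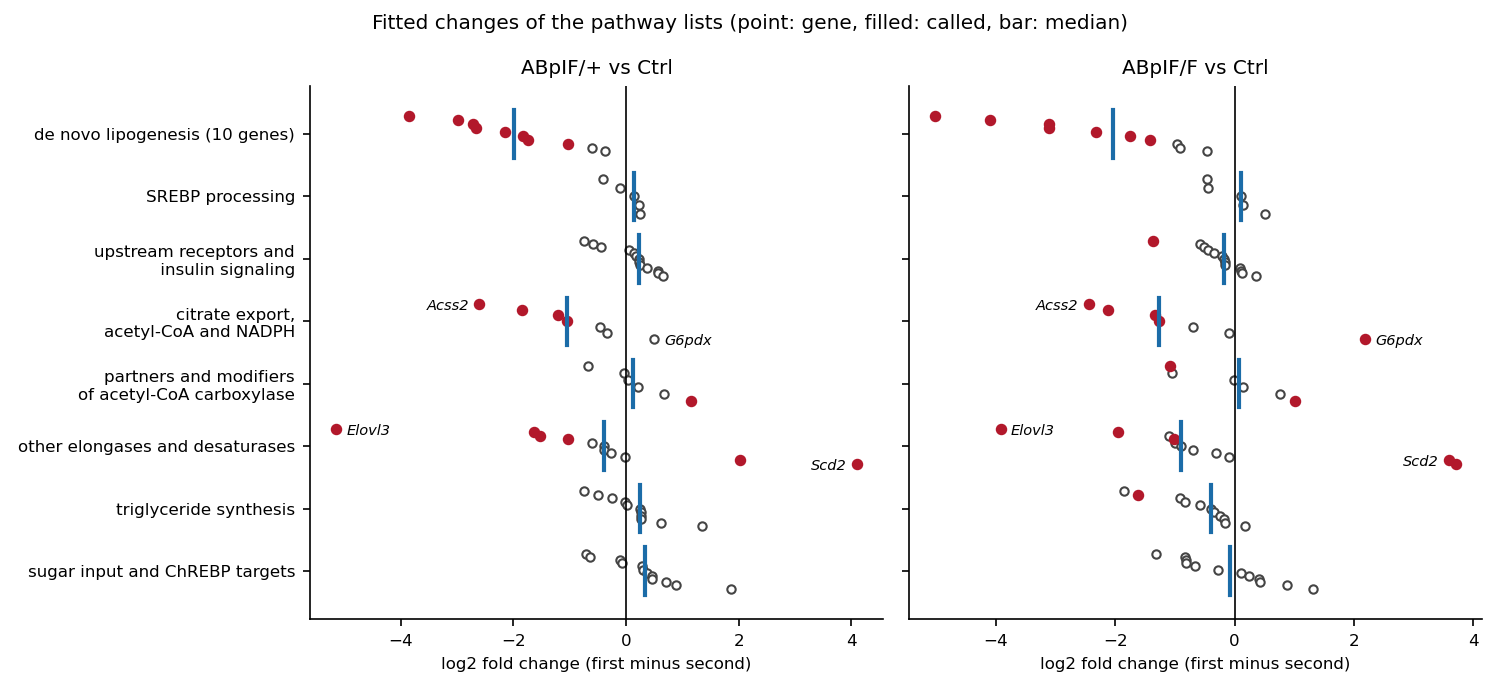
Fitted log2 fold changes of the 10 de novo lipogenesis genes and of 7 lists of neighbouring pathway genes in both comparisons with Ctrl. Points are genes, filled where called, and blue bars are the medians of the genes drawn; genes with 3 counts or fewer in every mouse of a group are left out. The members and the citrate and NADPH list have the lowest medians in both comparisons. The other elongases and desaturases also lie mostly below 0 in both, and the triglyceride list in ABpIF/F vs Ctrl.

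These are bulk samples, in which fewer cells of a type and less RNA per cell cannot be told apart. The summed CPM of 8 hepatocyte markers was between 96289 and 124901 in Ctrl, between 153121 and 208284 in ABpIF/+ and between 108218 and 196369 in ABpIF/F mice. Albumin (*Alb*) made up at least 78.6% of this sum in every mouse. Without it the sum was between 18487 and 24889 CPM in Ctrl, between 15028 and 24253 in ABpIF/+ and between 7958 and 15091 in ABpIF/F mice, so that ABpIF/+ overlapped Ctrl and ABpIF/F lay below it. Of these 8 markers, 1 was called higher in ABpIF/+ and 3 lower in ABpIF/F vs Ctrl, and 4 of 8 and 6 of 8 estimates were below 0. Among adipocyte markers, *Lep* and *Retn* had 0 counts in every mouse, and *Adipoq* and *Plin1* had at most 3. *Fabp4* and *Lipe*, which other liver cells also express, made up most of that list, whose sum was between 15.0 and 21.7 CPM in Ctrl, 7.98 and 16.5 in ABpIF/+ and 15.1 and 17.3 in ABpIF/F mice. Of 8 stellate cell and fibroblast markers, 6 were called lower in ABpIF/+ vs Ctrl (summed CPM between 58.7 and 125 against 207 and 275) and 1 was called higher in ABpIF/F vs Ctrl. Of 8 cholangiocyte markers, 2 were called higher and 1 lower in ABpIF/+ vs Ctrl, and 6 called higher in ABpIF/F vs Ctrl (summed CPM between 236 and 1195 against 49.4 and 87.9). Of 8 macrophage markers 4, of 8 lymphocyte markers 2 and of 8 endothelial markers 2 were called lower in ABpIF/+ vs Ctrl. In ABpIF/F vs Ctrl 1 lymphocyte and 1 endothelial marker were called higher, and edgeR and DESeq2 called 0 macrophage markers (1 at an unadjusted p under 0.05). Of the lymphocyte markers, 0 averaged 1 CPM or more. The called one, *Cd8a*, was at 0.52, 0.50 and 3.16 CPM in the ABpIF/F mice BG183, BG90 and BG38, and DESeq2 called 0 of this list there. Over all genes with a read, 7.13% were called lower and 6.26% higher in ABpIF/+ vs Ctrl, and 3.17% and 6.06% in ABpIF/F vs Ctrl. The part of cell composition in the results was not tested.

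Feeding state and time of day are not in the labels. Of 12 genes induced by fasting, 2 were called higher and 3 lower in ABpIF/+ vs Ctrl, and 1 higher and 6 lower in ABpIF/F vs Ctrl. Over all genes with a read, 6.26% were called higher and 7.13% lower in ABpIF/+ vs Ctrl, and 6.06% and 3.17% in ABpIF/F vs Ctrl. *Igfbp1*, which insulin represses, was between 22.1 and 103 CPM (median 44.2) in Ctrl, between 1495 and 3691 CPM (median 2153) in ABpIF/+ and between 404 and 1350.0 CPM (median 604) in ABpIF/F mice, and was called higher in both (5.45 ± 0.53 (SE, adjusted p = 2.69e-06) and 3.85 ± 0.53 (SE, adjusted p = 0.000143)). *Pck1* was called lower in ABpIF/F only (-1.70) and higher in ABpIF/+ than in ABpIF/F mice (2.10). Of 14 clock genes, 3 were called higher in ABpIF/+ vs Ctrl and 4 lower in ABpIF/F vs Ctrl, where DESeq2 called 9. In ABpIF/+ vs ABpIF/F, 5 were called higher and 1 lower, beside 2.35% and 7.32% of genes with a read. There 13 of the 14 had an adjusted p under 0.05 (edgeR), beside 3990 of the 12316 genes averaging 1 CPM or more. The part of feeding and of sampling time in the members' levels was not tested. The clock score was between -0.66 and -0.15 in ABpIF/+ and between 0.59 and 1.65 in ABpIF/F mice. Among Ctrl mice only malpa387 (1.24) had a high score, so the covariate cannot separate sampling time from group for ABpIF/F mice.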

How the data were processed

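Livers of 15 mice were profiled by RNA-seq. Per the labels and methods, the authors isolated RNA with Trizol, prepared stranded mRNA libraries, aligned paired-end reads to mm10 (GRCm38) with HISAT2 and assigned them to genes by featureCounts 2.0.8. The annotation and strand setting of the counting are not given in the sources used here. The deposited values are raw counts per gene, in 15 columns that were matched to mice by name, although 23 samples are listed and 8 mice are named by 2 samples. A second deposited table repeated the counts of 10 mice exactly, and its other 5 count columns were not used. Columns of the authors' fold changes and p-values were not used either. Symbols identify genes as the table gives them.

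All 27179 genes were fitted in R 4.3.3 with edgeR 4.0.16 (TMM factors, robust dispersion, 1 quasi-likelihood model of 3 groups in the form of edgeR 3, no covariate, all genes kept), and p-values were adjusted by Benjamini-Hochberg over all genes. Calls required an adjusted p below 0.01 and a log2 fold change of 1 or more in size. SEs were derived from the F statistics. The script was tested on simulated data with known changes. The closest pair of mice of a group differed far beyond sampling noise (chi-square per degree of freedom 19.1), so each counts as 1 replicate, n being animals. Correlations used log2 CPM with a prior count of 2. Promoter windows came from RefSeq (GRCm38.p6) and were matched by symbol for 9 of 10 members.

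The members, gene lists and tests were chosen with earlier results of these data known. Named are the 10 members, per list and comparison up to 4 called genes of at least 5 CPM in one group by fold change, 11 other pathway genes, the 5 genes most like Fasn and Srebf1, and up to 3 genes of each context list. Alternatives were RLE factors, total counts, upper-quartile factors, DESeq2 1.42.0, filterByExpr, edgeR's newer form, no robust estimation, other thresholds, only the groups compared, leaving out each mouse, BG3 as the only Ctrl, and a clock score as covariate. Proteomics and reads were not analysed here, and some genes within the naming rule above are not reported here.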

Additional observations from a re-analysis of the deposited data

Results flagged for a closer look

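In 20 groups of 6 mice (10 members in Ctrl and in ABpIF/+), 2 held a mouse whose gap to the next was over 0.625 of the group's range, the critical value at 95% for 6 values. Chance alone marks about 1 in 20 such groups. For *Acaca*, the ABpIF/+ mouse BG40 had 184 CPM and its gap took 0.705 of the range. For *Scd1*, the ABpIF/+ mouse BG175 had 3321 CPM and its gap took 0.758 of the range.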

How the results depend on the processing

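Of the counts of members called in each comparison, those against Ctrl were again 8 and 7 lower and 0 higher with RLE, upper-quartile and total-count scaling, DESeq2, filterByExpr, edgeR's newer form, no robust estimation and only the groups compared. Total counts without a factor moved the median of all genes by -0.18 in ABpIF/+ vs Ctrl and -0.19 in ABpIF/+ vs ABpIF/F. At a log2 fold change of 2 or more, 5 were lower in ABpIF/+ vs Ctrl. Against BG3 as the only Ctrl, 3 were lower in each comparison with Ctrl. With the clock score as covariate, 3 were lower in ABpIF/F vs Ctrl, while *Acacb* (-2.66), *Elovl6* (-2.35), *Fasn* (-1.47) and *Acly* (-1.32) retained negative changes with larger SEs. Leaving out 1 mouse at a time gave 7 to 8 lower in ABpIF/+ vs Ctrl, 4 (without BG38) to 8 (without malpa387) lower in ABpIF/F vs Ctrl and 0 to 1 higher in ABpIF/+ vs ABpIF/F. In ABpIF/+ vs ABpIF/F, 1 member (*Thrsp*) was called higher with DESeq2, filterByExpr, edgeR's newer form, no robust estimation, only the groups compared, BG3 as the only Ctrl, or an adjusted p under 0.05 at any fold, the last of which also gave 1 lower (*Mlxipl*).

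Signs turned only for changes that were not called. With BG3 as the only Ctrl, *Acaca* was 0.32 in ABpIF/+ vs Ctrl. In ABpIF/+ vs ABpIF/F, *Elovl6* was -0.013 with total counts, and the clock covariate gave -0.58 for *Srebf1*, -0.055 for *Acaca*, -0.057 for *Acacb*, -0.36 for *Fasn*, -0.74 for *Elovl6* and 0.26 for *Scd1*. Over the fits without 1 mouse, *Me1* ran from -0.017 to 0.50, *Elovl6* from -0.065 to 0.29 and *Scd1* from -0.25 to 0.066. The causes were not tested. The tests were not rerun on the second deposited table. In it, 10 count columns were identical to those used, and the other 5 count columns were not compared. No paired analysis was possible because the groups consist of different animals, the labels do not tie mice of different groups together and replicate numbers were given in accession order. The suffix on some sample names marks repeat samples of 1 mouse.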
